A study of Homo sapiens with 28 samples.

Results

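The genes described here are 31 human cell cycle and replication genes, taken from a list of symbols: 13 act in S phase entry and DNA synthesis and 18 act in mitosis. Their transcripts were measured on Affymetrix Human Exon 1.0 ST arrays, which carry probesets along the exons of each gene. At gene level 27 of the 31 had a transcript cluster annotated to their symbol alone, of 14232 genes with such a cluster. At exon level all 31 had probesets, 586 of the 287329 on the array. The probesets of a gene are read on the same arrays as its cluster. Counts of probesets in 1 direction therefore describe the gene and are no independent support for its difference. MCM7, PCNA, BUB1B and KIF20A share their cluster with another annotated gene, so they were read from the median of their probesets, and the probesets of CDK1 carry its older symbol CDC2. Values are log2 signals as deposited, and a difference of 1 on this scale is a 2-fold change in signal.

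The lines came in 3 groups. Embryonal carcinoma (EC) lines derive from germ cell tumours, and embryonic stem (ES) lines from embryos. EC lines on plastic were NCCIT, 2102Ep, 833KE, TERA1 and NTERA2 (n = 5), grown in high-glucose DMEM with FCS. For 3 of them, NTERA2, 2102Ep and 833KE, a culture on feeders was read as well (n = 3), that is, on inactivated fibroblasts of mouse embryos, with a medium of knock-out DMEM, serum replacement and 4 ng/ml FGF. The ES lines H14, Shef5, Shef 6, Shef3, H9 and Shef7 (n = 6) had the same feeders and medium. All cells were sorted for SSEA3, a surface antigen of undifferentiated pluripotent cells. Each array is 1 line in 1 growth condition, with no repeat culture, so the p-values measure the spread between lines. Those of exon usage, given below, are an exception. Between EC lines on plastic and ES lines the cell type, substrate and medium differ together and cannot be told apart. As these are bulk samples, fewer cells in a phase of the cycle and less RNA per cell cannot be told apart either.

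Before S phase the licensing factor CDC6 and its partners load the MCM helicase onto replication origins, and E2F factors switch on the genes of DNA synthesis. Mitotic genes are transcribed later, in G2 and M, through DNA elements called the CHR (cell cycle genes homology region) and the CCAAT box, which bind the DREAM, MYBL2 and FOXM1 complexes and NF-Y. Pluripotent stem cells are known for short cycles with a brief G1 phase, in which many of these genes stay active.

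These promoter letters are shown because these 2 transcription programmes are described for genes of replication and of mitosis. RefSeq (GRCh38.p14) gave windows of 300 bases, 250 before and 50 after the start, for 25 of the 31 genes (31 windows). The letters searched on both strands were TTTGAA and TTTAAA for the CHR, CCAAT for the CCAAT box, and TTTCCCGC, TTTGGCGC, TTTCGCGC and TTTGCCGC for E2F. CHR letters were in the windows of 12 of 15 mitotic genes, 2 of 10 replication genes and 7605 of all 27305 genes with windows. They were in 23.99% of all 35116 human windows. CCAAT was in 14 of 15 mitotic genes, 7 of 10 replication genes and 10846 of the 27305 genes, and in 34.6% of all windows. E2F letters were in 2 of 15 mitotic genes, 8 of 10 replication genes and 1090 of the 27305 genes, and in 3.31% of all windows. A match describes the letters and is no evidence of binding. The mitotic genes printed are those whose gene-level arrays did not overlap the ES lines in EC lines on feeders, with CHR and CCAAT letters on either strand in capitals. The replication genes printed are the S phase entry and MCM members with the smallest p that had letters to show, with E2F letters on either strand in capitals. In MCM2 a match on each strand overlaps the other. Left in lower case are an E2F match in CENPA and CCAAT matches in E2F1 and CDC6. Each line runs 5′ to 3′ from 250 bases before the start to 20 after it.
CENPA, chr2:26785806-26786075, plus strand: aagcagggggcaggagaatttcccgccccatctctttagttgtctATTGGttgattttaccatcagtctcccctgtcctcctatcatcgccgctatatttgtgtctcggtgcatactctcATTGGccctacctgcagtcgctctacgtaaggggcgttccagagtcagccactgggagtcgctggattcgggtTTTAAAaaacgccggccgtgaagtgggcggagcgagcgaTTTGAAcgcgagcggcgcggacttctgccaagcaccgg
CCNB2, chr15:59104896-59105165, plus strand: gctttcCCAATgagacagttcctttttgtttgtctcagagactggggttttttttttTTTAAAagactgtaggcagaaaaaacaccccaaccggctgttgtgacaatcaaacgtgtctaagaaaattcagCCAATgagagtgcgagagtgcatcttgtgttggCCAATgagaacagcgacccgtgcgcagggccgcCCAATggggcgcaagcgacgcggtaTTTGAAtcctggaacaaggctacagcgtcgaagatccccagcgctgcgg
CDC20, chr1:43358731-43359000, plus strand: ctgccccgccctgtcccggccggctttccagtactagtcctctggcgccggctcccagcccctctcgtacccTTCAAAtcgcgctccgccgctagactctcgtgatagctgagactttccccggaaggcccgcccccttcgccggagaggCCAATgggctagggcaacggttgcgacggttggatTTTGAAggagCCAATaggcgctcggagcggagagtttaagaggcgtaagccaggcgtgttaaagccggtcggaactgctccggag
MCM2, chr3:127598161-127598430, plus strand: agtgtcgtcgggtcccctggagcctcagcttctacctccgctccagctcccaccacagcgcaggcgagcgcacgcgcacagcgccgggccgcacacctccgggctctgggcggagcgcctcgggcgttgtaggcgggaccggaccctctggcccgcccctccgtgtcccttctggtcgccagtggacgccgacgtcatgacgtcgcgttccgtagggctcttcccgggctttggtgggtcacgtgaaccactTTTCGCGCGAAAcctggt
E2F1, chr20:33686366-33686635, minus strand: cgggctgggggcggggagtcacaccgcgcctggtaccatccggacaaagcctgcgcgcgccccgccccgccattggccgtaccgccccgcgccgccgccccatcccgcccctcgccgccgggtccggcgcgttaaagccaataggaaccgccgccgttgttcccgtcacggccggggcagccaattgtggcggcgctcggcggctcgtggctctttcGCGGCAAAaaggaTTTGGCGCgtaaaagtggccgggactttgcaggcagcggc
CDC6, chr17:40287629-40287898, plus strand: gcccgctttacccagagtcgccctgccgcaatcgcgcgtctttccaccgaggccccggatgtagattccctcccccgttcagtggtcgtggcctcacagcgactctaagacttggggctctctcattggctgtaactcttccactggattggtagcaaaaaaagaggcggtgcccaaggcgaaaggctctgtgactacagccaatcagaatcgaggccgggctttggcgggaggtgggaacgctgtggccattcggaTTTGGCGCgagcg

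Array medians of the deposited gene-level values lay between 6.19 and 6.39, and pairs of arrays correlated at 0.931 to 0.984 over all 22011 clusters. The mean level of 10 measured pluripotency markers was 10.1 to 11.2 in EC lines on plastic, 10.1 to 10.8 in EC lines on feeders and 9.67 to 10.5 in ES lines. Of these markers GDF3 alone passed in a comparison with ES lines, higher by 3.49 on plastic and 3.50 on feeders. The mean level of 16 measured fibroblast markers was 5.49 to 5.93 in EC lines on plastic, 6.15 to 6.49 in EC lines on feeders and 6.08 to 6.99 in ES lines. In EC lines on plastic against ES lines 3 of these 16 markers passed as lower and 0 as higher, and their part in the differences below was not tested. The labels number the arrays, and the 4 with a code up to 13 (NTERA2 and 2102Ep on feeders, H14 and Shef5) are set apart from the 10 with a code from 17. The labels do not say what the code stands for.

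Of the 27 members with a cluster, CENPA alone passed in EC lines on plastic against ES lines, and it was higher. A gene is said to pass when its Benjamini-Hochberg adjusted p from limma, over all 22011 clusters, is below 0.05, which 4.60% of all clusters were. Of the 27 members 19 were higher, with a median difference of 0.15, beside 0.0046 over all clusters. After quantile normalization 13 of the 27 were higher and the median was -0.03, beside -0.03 over all clusters, so the direction of the list as a whole depended on the scaling. Unadjusted p was below 0.05 for 6 members, and for 19.2% of all clusters. CENPA was the 1 member whose EC arrays on plastic all lay above all ES arrays, as 2.85% of clusters did, and 0 members lay wholly below, as 1.52% did.

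By role, 14 of 16 mitotic members were above 0 on plastic with a median of 0.24, and 5 of 11 replication members with a median of -0.02, a contrast between the lists that was not tested. After quantile normalization these were 9 of 16 with 0.06 and 4 of 11 with -0.15. On feeders 12 of 16 mitotic members were above 0 with a median of 0.32, and 8 of 11 replication members with 0.06. After quantile normalization these were 10 of 16 with 0.17 and 5 of 11 with -0.10.

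In EC lines on feeders against ES lines CENPA was again the 1 member of 27 that passed, and it was higher, beside 2.29% of all clusters that passed either way. Of the 27 members 20 were higher, with a median of 0.17, beside 0.04 over all clusters. After quantile normalization 15 were higher and the median was 0.01, beside 0.00079. Unadjusted p was below 0.05 for 8 members, and for 17.6% of clusters. CENPA, CDC20, CCNB2 and MCM2 lay wholly above the ES arrays, as 5.78% of clusters did, and 0 members lay wholly below, as 3.08% did. The 4 members read from probeset medians gave 0 that passed in either comparison, beside 6.59% of 16933 genes on plastic and 3.70% on feeders. Of these 4, KIF20A lay wholly above the ES arrays on feeders, as 6.35% of genes did, and 0 did so on plastic, beside 3.35%. Both comparisons use the same 6 ES arrays and so are not independent of each other.

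**Figure D1:**
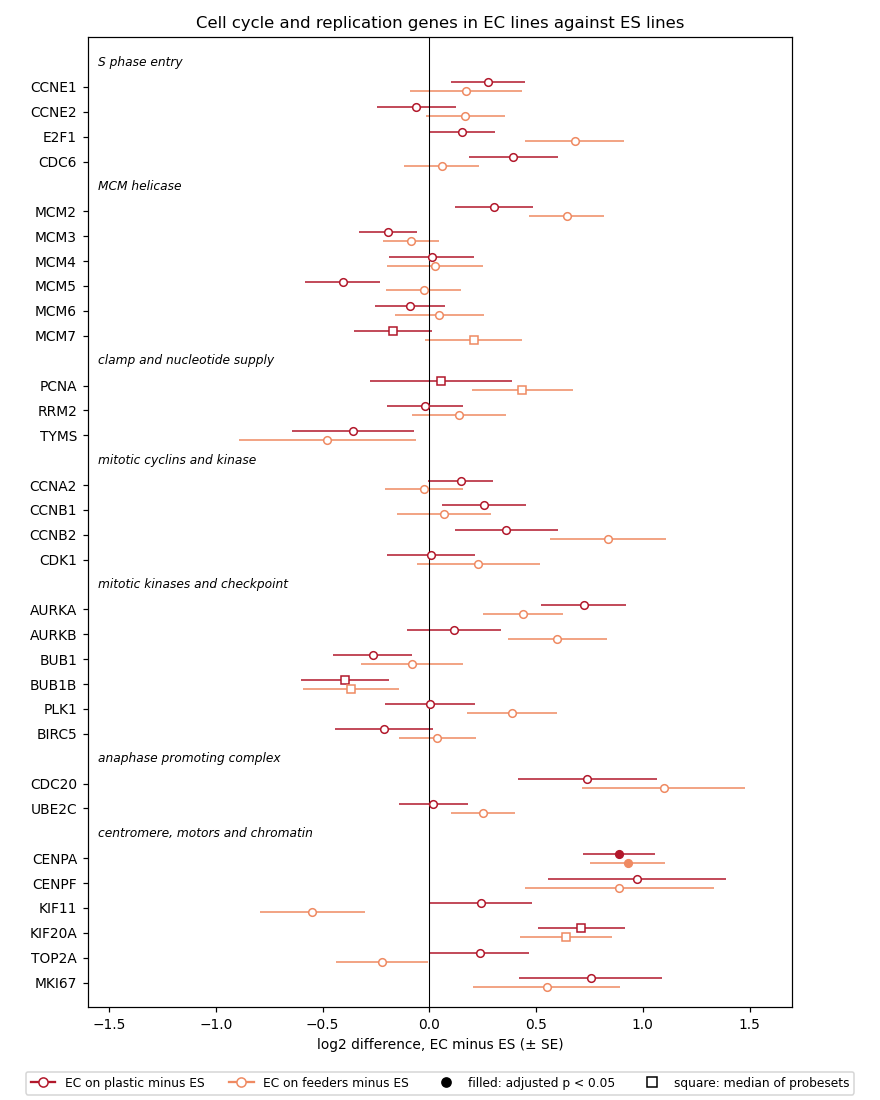
Each row is 1 of the 31 genes, grouped by role, and the x axis is the log2 difference, EC minus ES, with its standard error. Dark points are EC lines on plastic (n = 5) and light points EC lines on feeders (n = 3), each against ES lines (n = 6). Only the CENPA points, at 0.89 and 0.93, are filled (adjusted p below 0.05), and squares are medians of probesets.

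Among the genes of S phase entry, cyclin E1 (CCNE1) and cyclin E2 (CCNE2) activate CDK2, E2F1 switches on replication genes, and CDC6 licenses origins. None of these 4 passed in either comparison with ES lines. CDC6 read 10.66 in NCCIT, 10.39 in 2102Ep, 9.84 in 833KE, 10.12 in TERA1 and 9.48 in NTERA2 on plastic, against a lowest of 9.43, a median of 9.71 and a highest of 9.95 in ES lines. NCCIT, 2102Ep and TERA1 lay above the ES range and the groups overlapped. The difference was 0.39 (SE 0.21, adjusted p = 0.336). On feeders CDC6 read 9.74 in NTERA2, 9.96 in 2102Ep and 9.59 in 833KE, a difference of 0.06 from ES lines (SE 0.18, adjusted p = 0.911).

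E2F1 read 8.16 in NTERA2, 8.40 in 2102Ep and 7.50 in 833KE on feeders, against a lowest of 6.89, a median of 7.36 and a highest of 7.74 in ES lines. NTERA2 and 2102Ep lay above the ES range, and 833KE lay within it. The difference was 0.68 (SE 0.23, adjusted p = 0.164). Both high arrays have codes up to 13, as has H14, the highest ES array. With the code in the fit the difference was 0.51 (adjusted p = 0.190), among codes up to 13 it was 0.67 (adjusted p = 0.412), and among codes from 17, with 833KE as the lone EC array, it was 0.30 (adjusted p = 0.684). On plastic E2F1 lay between 7.31 and 7.76, a difference of 0.15 from ES lines (adjusted p = 0.656). CCNE1 differed from ES lines by 0.28 on plastic and by 0.17 on feeders, where probeset medians gave -0.35. CCNE2 differed by -0.06 and 0.17, and each of these values had an adjusted p above 0.4. CCNE2 was dim, with a mean of 5.07 over the 14 arrays against array medians of 6.19 to 6.39.

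MCM2 to MCM7 form the ring of the replicative helicase, and no subunit passed. MCM5 had the smallest p on plastic, where it was lower, and MCM2 on feeders, where it was higher. MCM5 read 9.42 in NCCIT, 10.15 in 2102Ep, 10.01 in 833KE, 9.47 in TERA1 and 9.50 in NTERA2 on plastic, against a lowest of 9.87, a median of 10.01 and a highest of 10.41 in ES lines. NCCIT, TERA1 and NTERA2 lay below every ES array, and 2102Ep and 833KE lay within the ES range. The difference was -0.41 (SE 0.18, adjusted p = 0.227), and after quantile normalization it was -0.62 with an adjusted p of 0.0480. With 1 array left out at a time it ran between -0.52 and -0.33, with adjusted p between 0.146 and 0.372. All 23 MCM5 probesets were lower in EC lines on plastic and 0 passed, with a smallest adjusted p of 0.112. On feeders MCM5 read 9.89 in NTERA2, 10.30 in 2102Ep and 10.08 in 833KE, a difference of -0.03 from ES lines (adjusted p = 0.962).

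MCM2 read 10.17 in NTERA2, 9.83 in 2102Ep and 9.90 in 833KE on feeders, against a lowest of 9.14, a median of 9.26 and a highest of 9.80 in ES lines. The groups did not overlap, though H14, the highest ES array, came close to 2102Ep. The difference was 0.64 (SE 0.18, adjusted p = 0.0919), and without H14 it was 0.74 with an adjusted p of 0.0468. With 1 array left out at a time it ran between 0.54 and 0.74, with adjusted p between 0.0468 and 0.224. After quantile normalization it was 0.48 (adjusted p = 0.178), and the lowest difference among the other alternatives was 0.46. On plastic MCM2 read 9.05 in NCCIT, below every ES array, and between 9.54 and 9.92 in the other EC lines, a difference of 0.30 (SE 0.18, adjusted p = 0.409). MCM3, MCM4 and MCM6 differed from ES lines by -0.19, 0.01 and -0.09 on plastic and by -0.09, 0.03 and 0.05 on feeders. MCM7, by the median of its probesets, differed by -0.17 on plastic and 0.21 on feeders, with adjusted p over 16933 genes of 0.662 and 0.688.

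PCNA is the sliding clamp that holds DNA polymerases on their template, RRM2 is the small subunit of ribonucleotide reductase, and TYMS makes thymidylate. None of the 3 passed. TYMS read 9.68 in NCCIT, 9.10 in 2102Ep, 8.07 in 833KE, 9.16 in TERA1 and 9.12 in NTERA2 on plastic, against a lowest of 8.96, a median of 9.20 and a highest of 10.13 in ES lines. Only 833KE lay below the ES range, and the difference was -0.36 (SE 0.29, adjusted p = 0.557). On feeders TYMS read 9.82 in NTERA2, 9.16 in 2102Ep and 7.74 in 833KE, a difference of -0.48 from ES lines (SE 0.42, adjusted p = 0.619). 833KE was the low line in both growth conditions, and without it the difference was -0.12 on plastic and 0.11 on feeders. Among codes from 17 it was -0.20 on plastic and -1.48 on feeders, where 833KE is then the lone EC array.

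RRM2 differed from ES lines by -0.02 on plastic and 0.14 on feeders. PCNA varied among EC lines on plastic, between 8.96 in NCCIT and 11.18 in 2102Ep by the median of its probesets, against 9.36 to 10.25 in ES lines. Its difference from ES lines was 0.05 on plastic (adjusted p = 0.954) and 0.44 on feeders (SE 0.24, adjusted p = 0.358).

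Cyclin A2 (CCNA2), cyclins B1 and B2 (CCNB1, CCNB2) and their kinase CDK1 drive entry into mitosis, and none passed. CCNB2 read 9.85 in NTERA2, 9.42 in 2102Ep and 9.96 in 833KE on feeders, against a lowest of 8.11, a median of 8.97 and a highest of 9.39 in ES lines. The groups did not overlap, with 2102Ep just above H14. The difference was 0.84 (SE 0.27, adjusted p = 0.144). Among codes up to 13 it was 0.32 (adjusted p = 0.703), and among codes from 17 it was 1.26 (adjusted p = 0.178). On plastic CCNB2 read 9.39 in NCCIT, 9.43 in 2102Ep, 9.16 in 833KE, 8.68 in TERA1 and 9.67 in NTERA2, a difference of 0.36 from ES lines (SE 0.24, adjusted p = 0.467). CCNB1 differed by 0.26 on plastic and 0.07 on feeders, CCNA2 by 0.15 and -0.02, and CDK1 by 0.0068 and 0.23. Quantile normalization turned the sign for CCNA2 and CDK1 on plastic and for CCNB1 on feeders.

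Aurora A (AURKA) is the kinase of the spindle poles, Aurora B (AURKB) and survivin (BIRC5) belong to the chromosomal passenger complex, PLK1 is polo-like kinase, and BUB1 and BUB1B act in the spindle checkpoint. None of the 6 passed, and AURKA came nearest. AURKA read 8.31 in NCCIT, 9.04 in 2102Ep, 8.63 in 833KE, 9.09 in TERA1 and 9.26 in NTERA2 on plastic, against a lowest of 7.80, a median of 8.16 and a highest of 8.61 in ES lines. All EC lines but NCCIT lay above the ES range. The difference was 0.72 (SE 0.20, adjusted p = 0.0638), and without NCCIT it was 0.86 with an adjusted p of 0.0211. With 1 array left out at a time it ran between 0.63 and 0.86, with adjusted p between 0.0211 and 0.140. After quantile normalization it was 0.55 (adjusted p = 0.123). All 11 AURKA probesets were higher in EC lines on plastic. On feeders AURKA read 8.60 in NTERA2, 8.52 in 2102Ep and 8.63 in 833KE, a difference of 0.44 from ES lines (SE 0.19, adjusted p = 0.261).

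AURKB read 9.78 in NTERA2, 10.41 in 2102Ep and 9.78 in 833KE on feeders, against a lowest of 8.84, a median of 9.36 and a highest of 9.78 in ES lines. 2102Ep alone lay above the ES range, with the other EC arrays at its top, and the difference was 0.60 (SE 0.23, adjusted p = 0.216). Without 2102Ep it was 0.39, among codes up to 13 it was 0.36, and by probeset medians it was 0.16 (adjusted p = 0.775). Of the 13 AURKB probesets 12 were higher on feeders, with a median of their differences of 0.59. On plastic AURKB differed from ES lines by 0.12, a sign that quantile normalization turned. BUB1B was lower in both comparisons, by -0.39 on plastic (SE 0.20, adjusted p = 0.291) and -0.37 on feeders (SE 0.23, adjusted p = 0.420) in the median of its probesets. On plastic 28 of its 29 probesets were lower and on feeders 27, and 0 passed. BUB1 differed by -0.27 and -0.08, BIRC5 by -0.21 and 0.04, and PLK1 by 0.0041 and 0.39.

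CDC20 activates the anaphase promoting complex, and UBE2C is the ubiquitin-conjugating enzyme of that complex. CDC20 read 10.11 in NCCIT, 10.68 in 2102Ep, 10.80 in 833KE, 11.06 in TERA1 and 10.52 in NTERA2 on plastic. On feeders it read 11.11 in NTERA2, 10.998 in 2102Ep and 10.87 in 833KE. In ES lines the lowest was 8.52, the median 10.03 and the highest 10.75. Every feeder-grown EC array lay above every ES array, while on plastic NCCIT, 2102Ep and NTERA2 lay within the ES range, and Shef 6 was far below the other ES lines.

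The CDC20 difference from ES lines was 0.74 on plastic (SE 0.33, adjusted p = 0.239) and 1.10 on feeders (SE 0.38, adjusted p = 0.170). Without Shef 6 it was 0.46 on plastic (adjusted p = 0.275) and 0.82 on feeders (adjusted p = 0.103), and among codes up to 13 it was 0.64 on feeders. UBE2C differed by 0.02 on plastic, a sign that quantile normalization turned, and by 0.25 on feeders.

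CENPA is the histone H3 variant that marks the centromere, CENPF is a kinetochore protein, KIF11 and KIF20A are kinesins of the spindle and of cell division, TOP2A untangles DNA, and MKI67 encodes the proliferation marker Ki-67. CENPA read 8.77 in NCCIT, 9.25 in 2102Ep, 9.64 in 833KE, 9.15 in TERA1 and 9.05 in NTERA2 on plastic. On feeders it read 9.36 in NTERA2, 8.95 in 2102Ep and 9.33 in 833KE. In ES lines the lowest was 8.02, the median 8.30 and the highest 8.65. All 8 EC arrays lay above all 6 ES arrays, of which H9 was the highest.

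CENPA rose in EC lines on plastic by 0.89 (SE 0.17, adjusted p = 0.0124), which is 1.85-fold, and in EC lines on feeders by 0.93 (SE 0.18, adjusted p = 0.0283), which is 1.90-fold. It averaged 9.17 ± 0.32 on plastic (SD, n = 5), 9.21 ± 0.23 on feeders (SD, n = 3) and 8.29 ± 0.23 in ES lines (SD, n = 6). Among arrays with codes from 17 the difference on plastic was 0.85 (adjusted p = 0.0581) and that on feeders 1.00 (adjusted p = 0.156, with 833KE as the lone EC array on feeders and its spread taken from the ES arrays). Among arrays with codes up to 13, which hold 2 EC and 2 ES arrays, the difference on feeders was 0.96 (adjusted p = 0.348). When the code entered the fit as a block, CENPA differed by 0.85 on plastic (adjusted p = 0.0365) and 0.98 on feeders (adjusted p = 0.0338). The call on plastic held without any 1 array, and that on feeders did not hold without H14, NTERA2, Shef 6, Shef3, Shef7 or 833KE. By the median of its probesets CENPA differed by 0.31 on plastic (adjusted p = 0.299) and -0.03 on feeders (adjusted p = 0.967). That median is taken over the signals of the 9 probesets within each array. The differences of the single probesets had a median of 0.92 on plastic and 0.92 on feeders, with 7 and 6 of the 9 higher.

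CENPF read 7.85 in NCCIT, 8.88 in 2102Ep, 9.65 in 833KE, 8.31 in TERA1 and 9.83 in NTERA2 on plastic, against a lowest of 7.05, a median of 7.87 and a highest of 8.80 in ES lines. The difference was 0.97 (SE 0.42, adjusted p = 0.224), with 2102Ep, 833KE and NTERA2 above the ES range. All 34 CENPF probesets were higher on plastic and 0 passed. MKI67 was ordered much as CENPF was, with 7.51 in NCCIT, 8.0 in 2102Ep, 8.48 in 833KE, 8.14 in TERA1 and 9.24 in NTERA2 on plastic, against a lowest of 6.91, a median of 7.41 and a highest of 8.31 in ES lines. The groups overlapped, with 833KE and NTERA2 above the ES range, and the difference was 0.76 (SE 0.33, adjusted p = 0.241). All 31 MKI67 probesets were higher on plastic and 0 passed. These counts for CENPF and MKI67 rest on the same arrays as the cluster values and add no independent support.

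KIF20A, by the median of its probesets, read 9.49 in NCCIT, 9.99 in 2102Ep, 10.54 in 833KE, 10.05 in TERA1 and 9.85 in NTERA2 on plastic, against a lowest of 8.86, a median of 9.32 and a highest of 9.53 in ES lines. NCCIT was the 1 EC line within the ES range. The difference was 0.71 (SE 0.20, adjusted p over 16933 genes = 0.0527), and on feeders it was 0.64 (SE 0.22, adjusted p = 0.125) with no overlap. TOP2A differed by 0.24 on plastic and -0.22 on feeders, and KIF11 by 0.24 and -0.55 (SE 0.25, adjusted p = 0.283). The KIF11 difference on feeders was -1.08 among codes from 17 and 0.038 among codes up to 13. CENPF, MKI67, KIF11, KIF20A and the MCM7 probeset below are given array by array by choice after their values were seen.

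**Figure D2:**
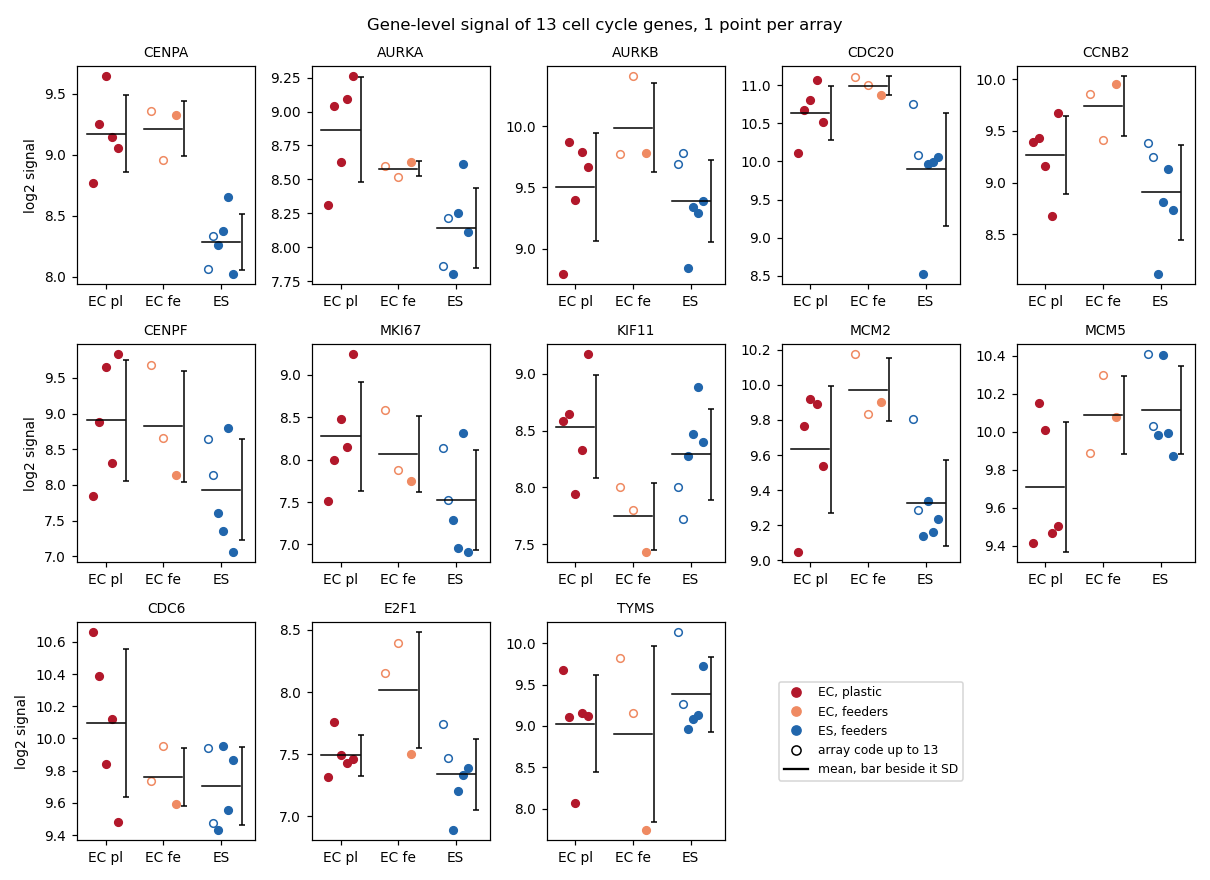
Each panel is 1 gene and each point 1 array, with the log2 signal on the y axis, for EC lines on plastic, EC lines on feeders and ES lines. Bars show the mean and SD, and open points are arrays with codes up to 13. In the CENPA panel all 8 EC points lie above the highest ES point at 8.65, and in the CDC20 panel Shef 6 lies alone at 8.52.

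The effect of growth on feeders was read in NTERA2, 2102Ep and 833KE, each against its own plastic culture. In this comparison 0 of 27 members and 0 of 22011 clusters passed with limma (0% of clusters), while unadjusted p was below 0.05 for 2 members and for 14.9% of clusters. The 2 members were KIF11 and MKI67, both lower on feeders. KIF11 read 8.004 in NTERA2, 7.80 in 2102Ep and 7.43 in 833KE on feeders, against 9.17, 8.65 and 7.94 in the same lines on plastic. It was lower in each line, by -0.84 on average (SE 0.19, adjusted p = 0.249), and 25 of its 26 probesets were lower. MKI67 read 8.58 in NTERA2, 7.88 in 2102Ep and 7.75 in 833KE on feeders, against 9.24, 8.0 and 8.48 on plastic, a difference of -0.50 (SE 0.20, adjusted p = 0.331).

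Of all 27 members 14 were higher on feeders than on plastic, with a median of 0.0093, as were 11656 of 22011 clusters. Of the 16 mitotic members 8 were higher. All 5 measured genes of the centromere, motor and chromatin group had a mean difference below 0 on feeders, with a group median of -0.60, beside 0.02 over all clusters. The medians of the other role groups ran between -0.01 (MCM helicase) and 0.22 (clamp and nucleotide supply). CENPF was lower by -0.16 in NTERA2, -0.23 in 2102Ep and -1.51 in 833KE, so 833KE carried most of its mean of -0.63 (SE 0.31, adjusted p = 0.413). TOP2A was lower by -1.14 in NTERA2 and -0.80 in 2102Ep and higher by 0.14 in 833KE. CENPA differed by 0.31 in NTERA2, -0.30 in 2102Ep and -0.32 in 833KE, with a mean of -0.10 (adjusted p = 0.844).

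Over the list, 5 members were higher on feeders in all 3 lines (CCNE2, E2F1, MCM5, AURKB and CDC20), as were 20.6% of clusters, and 5 were lower in all 3 (MCM3, AURKA, CENPF, KIF11 and MKI67), as were 18.1%. By probeset medians AURKB turned to a mean of -0.35, lower in NTERA2 and 2102Ep. Yet 10 of the 13 AURKB probesets were higher on feeders, with a median of their differences of 0.29. MCM3, at -0.07 by its cluster, turned to 0.10, while 10 of its 23 probesets were higher, with a median of their differences of -0.03. CCNE2 was dim, at a mean of 5.07 over the 14 arrays. AURKA was level in 833KE, by -0.00095, and lower by -0.66 in NTERA2 and -0.52 in 2102Ep. MCM7, by the median of its probesets, was higher in all 3 lines with a mean of 0.46 (adjusted p = 0.372), as were 19.4% of 16933 genes. E2F1 was higher by 0.69 in NTERA2 and 0.64 in 2102Ep and by 0.0061 in 833KE. CDK1 moved most unevenly among the mitotic cyclins and kinase, by -0.15 in NTERA2, -0.37 in 2102Ep and 1.17 in 833KE. RRM2 was higher by 1.06 in NTERA2 and lower by -0.10 in 2102Ep and -0.09 in 833KE. The feeder arrays of NTERA2 and 2102Ep have codes up to 13 and all plastic arrays have codes from 17. In those 2 lines growth condition and code cannot be told apart. Over all 3 lines 15 of 16 fibroblast markers had a mean difference above 0 on feeders, as had 11656 of 22011 clusters.

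**Figure D3:**
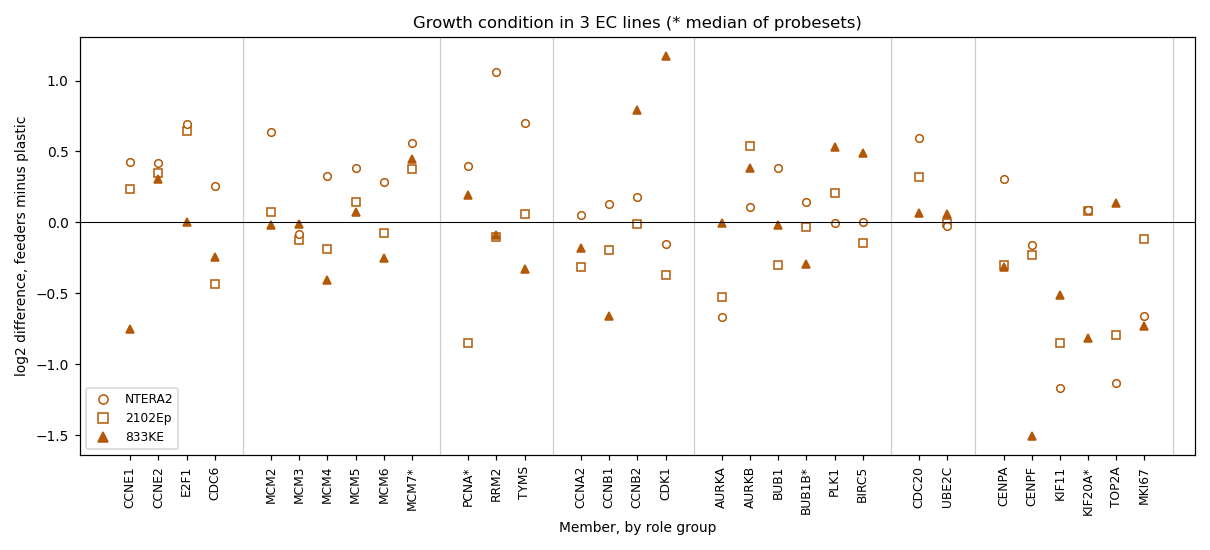
The x axis lists the 31 genes by role and the y axis is the log2 difference, feeders minus plastic, with 1 point for each of NTERA2, 2102Ep and 833KE. An asterisk marks genes read from the median of probesets. The 3 KIF11 points all lie below 0, and 1 CENPF point, 833KE, lies at -1.51.

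Single probesets showed where along each gene the signal differed. In EC lines on plastic against ES lines 6 of the 586 member probesets passed, all higher, beside 2.81% of all 287329 probesets that passed either way and 2.07% that passed as higher. These were 3 of 19 KIF20A probesets, 2 of 9 CENPA probesets and 1 of 11 AURKA probesets. In KIF20A all 19 probesets were higher, by 0.64 to 1.13 with a median of 0.83. The one with the smallest p, 2830661, averaged 7.61 ± 0.35 in EC lines on plastic (SD, n = 5) and 6.56 ± 0.30 in ES lines (SD, n = 6), with an adjusted p of 0.0307. The AURKA probeset that passed, 3910807, averaged 8.56 ± 0.23 in EC lines on plastic (SD, n = 5) and 7.60 ± 0.37 in ES lines (SD, n = 6), with an adjusted p of 0.0419. In EC lines on feeders against ES lines 0 of 586 passed with limma (smallest adjusted p 0.0534, a CENPA probeset), beside 0.953% of all probesets, and unadjusted p was below 0.05 for 89 of the 586, beside 13.6% of all probesets. In feeders against plastic 0 of 586 passed (smallest adjusted p 0.354), as did 0 of all probesets, and unadjusted p was below 0.05 for 68, beside 12.7% of all probesets.

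CENPA was uneven along its length. Of its 9 probesets 7 were higher in EC lines on plastic, and 6 of these differed by 0.89 to 1.23. Probeset 2473999 averaged 10.16 ± 0.51 in EC lines on plastic (SD, n = 5) and 9.10 ± 0.23 in ES lines (SD, n = 6), with an adjusted p of 0.0404. Probeset 2474002 averaged 10.26 ± 0.39 in EC lines on plastic (SD, n = 5) and 9.34 ± 0.17 in ES lines (SD, n = 6), with an adjusted p of 0.0422. The first and the last probeset by number were not higher, with a difference of -0.35 at 2473995 (adjusted p = 0.376) and -0.07 at 2474010 (adjusted p = 0.899).

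**Figure D4:**
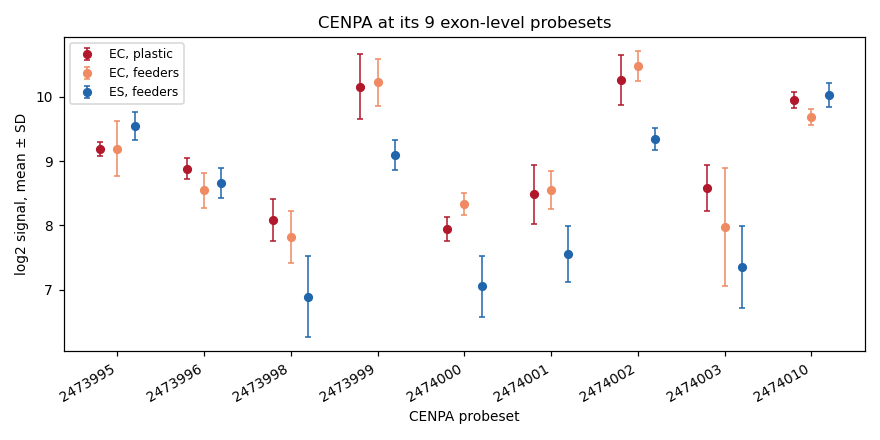
The x axis lists the 9 CENPA probesets by number and the y axis is the log2 signal, mean and SD, of EC lines on plastic (n = 5), EC lines on feeders (n = 3) and ES lines (n = 6). Both EC means lie above the ES mean at the 6 probesets from 2473998 to 2474003, by 1.06 at 2473999 on plastic, and neither does at 2473995 or 2474010. At 2473996 the mean on plastic lies above the ES mean and that on feeders 0.12 below it.

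Exon usage asks whether a probeset departs from the other probesets of its gene, in EC lines on plastic against ES lines. The test pools the residual spread over all kept probesets of a gene, though these are read on the same arrays. Its p-values therefore do not measure the spread between lines and can be too small. Of 554 member probesets in 30 genes 2 passed, with an adjusted p below 0.05 and a departure of at least 1, as did 0.170% of the 123212 probesets tested. CCNE2 was not tested because its probesets were too dim for the filter. In MCM7 probeset 3063687 read 6.76 in NCCIT, 6.58 in 2102Ep, 5.41 in 833KE, 6.67 in TERA1 and 7.32 in NTERA2 on plastic, against a lowest of 4.03, a median of 5.52 and a highest of 6.2 in ES lines. It departed from the rest of MCM7 by 1.29 (adjusted p = 0.000769), with 833KE within the ES range. On feeders the probeset read 6.26 in NTERA2, 5.78 in 2102Ep and 4.34 in 833KE, each lower than in the same line on plastic. Of these NTERA2 lay just above the ES range, and 2102Ep and 833KE lay within it. Exon usage on feeders was not tested. The probeset was dim in ES lines, with a mean of 5.39, below every exon-level array median. The cluster annotated to MCM7 also holds MIR106B, MIR25 and MIR93, microRNA genes that lie inside MCM7.

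In CENPA probeset 2473995 departed by -1.15 (adjusted p = 0.0121). It read 9.30 in NCCIT, 9.17 in 2102Ep, 9.12 in 833KE, 9.32 in TERA1 and 9.05 in NTERA2 on plastic, against a lowest of 9.21, a median of 9.58 and a highest of 9.77 in ES lines. Its own level overlapped between the groups.

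Other genes of the cycle were read in 3 lists: 38 measured genes of replication, 34 of mitosis and 18 cell cycle transcription regulators. In EC lines on plastic against ES lines 8 of these 90 passed, all higher, beside 3.26% of clusters that passed as higher. The mitosis list gave 5 of 34 with a median difference of 0.35, the regulators 2 of 18 with 0.14, and the replication list 1 of 38 with 0.11. In EC lines on feeders 4 of the 90 passed, all higher, beside 1.56% of clusters: 3 of 34 in mitosis, 1 of 18 regulators and 0 of 38 in replication. Against ES lines the medians on feeders were 0.32, 0.04 and 0.22 in that order. Of the 18 regulators 9 were higher on feeders than in ES lines, with differences between -1.07 and 1.54. In feeders against plastic 0 of 90 passed with limma, and the medians were -0.23 for mitosis, -0.07 for regulators and -0.06 for replication. With 0 passing, KIF18A (-0.88) and KIF14 (-0.76) had the smallest p in mitosis, RB1 (-1.07) and RBL1 (-0.79) among the regulators, and ORC4 (-0.54) and GINS1 (-0.60) in replication.

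FOXM1, a transcription factor of G2 and M genes, read 9.31 in NCCIT, 10.69 in 2102Ep, 10.12 in 833KE, 9.97 in TERA1 and 10.22 in NTERA2 on plastic. On feeders it read 10.62 in NTERA2, 10.94 in 2102Ep and 9.79 in 833KE, and in ES lines it ran between 8.59 and 9.30. NCCIT on plastic lay just above H14, and the other EC arrays lay well clear of the ES range. FOXM1 rose by 1.15 on plastic (SE 0.23, adjusted p = 0.0159) and 1.54 on feeders (SE 0.27, adjusted p = 0.0196). LIN9, a core subunit of the MuvB complex that works with FOXM1 and MYBL2, rose on plastic by 1.05 (SE 0.18, adjusted p = 0.00846) with no overlap. On feeders LIN9 differed by 0.83 (adjusted p = 0.0786) and MYBL2, which is named outside the rule for these lists, by 0.97 (adjusted p = 0.0970).

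CDCA8 (borealin), the partner of AURKB and BIRC5 in the passenger complex, rose by 0.93 on plastic (SE 0.15, adjusted p = 0.00646) and 1.04 on feeders (SE 0.19, adjusted p = 0.0248). Its EC arrays ran between 8.16 and 8.58 on plastic and 8.29 and 8.78 on feeders, against 7.08 to 7.74 in ES lines. KIF2C, a kinesin that removes tubulin from microtubule ends, rose by 1.10 on plastic (SE 0.20, adjusted p = 0.0105) and 1.24 on feeders (SE 0.21, adjusted p = 0.0197). CDCA3, a trigger of mitotic entry, rose by 1.24 on plastic (SE 0.30, adjusted p = 0.0383), where NCCIT at 7.37 lay inside the ES range and the other lines did not. On feeders it rose by 1.76 (SE 0.22, adjusted p = 0.00580).

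NUF2, a kinetochore protein, rose by 0.95 (SE 0.22, adjusted p = 0.0330) and KIF14, a kinesin of cytokinesis, by 1.07 (SE 0.28, adjusted p = 0.0480) on plastic, and both overlapped the ES lines. ORC1, the largest subunit of the origin recognition complex, was the 1 replication gene that rose on plastic, by 0.78 (SE 0.17, adjusted p = 0.0241). On feeders ORC1 differed by 0.75 (adjusted p = 0.104) and CDT1, which loads MCM with CDC6, by 0.74 (adjusted p = 0.115). LIG1, the ligase that joins newly made DNA fragments, had the next smallest p of the replication list on plastic, at -0.48 (adjusted p = 0.0664), and its groups did not overlap.

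**Figure D5:**
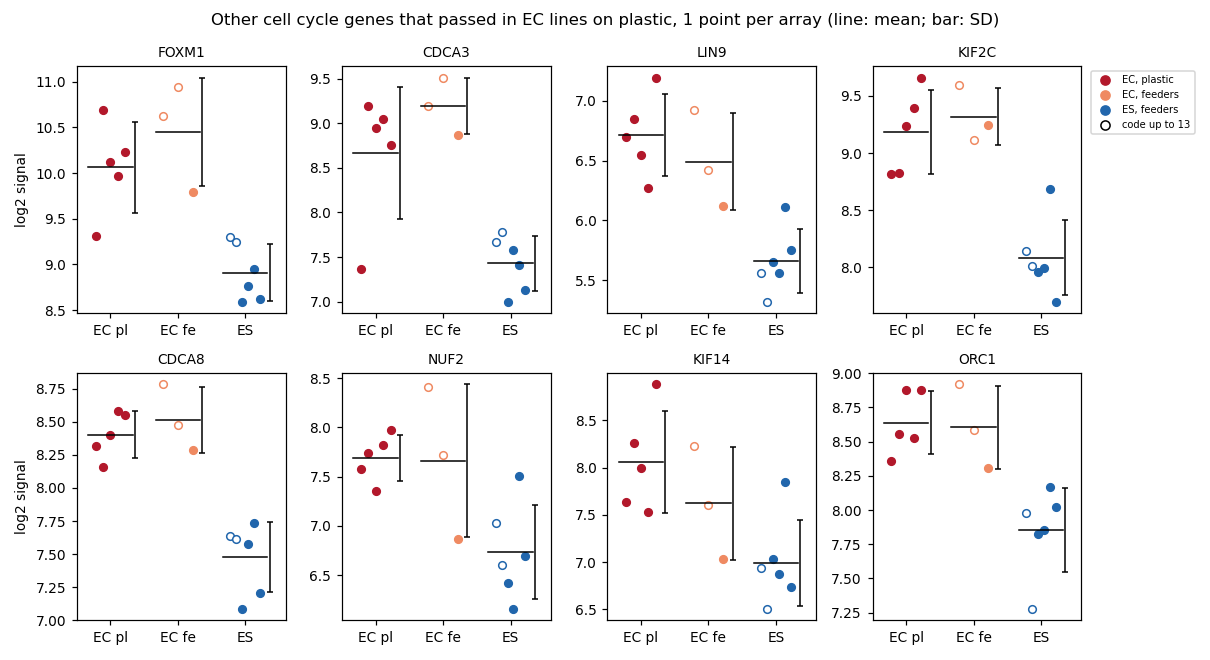
Each panel is 1 of the 8 other cell cycle genes that passed in EC lines on plastic against ES lines, and each point 1 array, with the log2 signal on the y axis. Bars show the mean and SD, and open points are arrays with codes up to 13. In the CDCA3 panel NCCIT lies alone at 7.37, inside the ES range, and in the CDCA8 panel every EC point lies above every ES point.

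Of the 8 that passed on plastic 6 lie on chromosome 1, where 11 of the 90 were measured, and FOXM1 and CDCA3 lie on the short arm of chromosome 12. On chromosome 1, 162 of 1441 genes passed as higher and 11 as lower on plastic, with a median difference of 0.12. On the short arm of chromosome 12 the median over 217 genes was 0.79 on plastic and 0.84 on feeders. Extra copies of this arm are a known feature of germ cell tumours. None of the 27 measured members lies on that arm, and 2, CDC20 and CENPF, lie on chromosome 1. The part of chromosome position in these differences was not tested.

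Array by array, the members did not move as a block. On plastic the median member differed from the ES mean by -0.08 in NCCIT, 0.34 in 2102Ep, 0.07 in 833KE, 0.31 in TERA1 and 0.21 in NTERA2. On feeders it differed by 0.43 in NTERA2, 0.18 in 2102Ep and 0.15 in 833KE. Among ES lines Shef 6 was lowest at -0.31, with the lowest array median as well (6.19), and H14 was highest at 0.24. NCCIT, the lowest EC line, had 3 members above the ES range and 8 below it, where 24.1% of all clusters lay above and 23.002% below. NTERA2 on feeders had 13 above and 0 below, where 25.2% of clusters lay above and 17.2% below.

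Over the 14 arrays the closest pair of members was CENPF and MKI67 (Pearson r = 0.951), then BUB1 and MCM6 (0.862) and AURKB and PLK1 (0.831). The median r was 0.350 over 120 pairs of mitotic members, 0.205 over 55 pairs of replication members and 0.140 over 176 mixed pairs. These arrays share lines and groups, so the correlations only describe them. Among 14205 other genes those most like the mean of the 27 members were UFC1 (r = 0.934), MAPKAP1 (0.912), CCT6A (0.908), ARF1 (0.906) and POLR3K (0.902), followed by CS, MGST1, WIPI2, WSB2 and IFNAR2 down to 0.882. None of these 10 is in the 3 cell cycle lists.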

How the data were processed

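RNA of 11 cell lines was read on 14 arrays at gene level and exon level. The deposited values are log2 signals, with the log2 scale read from their range. RMA, Affymetrix Expression Console and limma are named per the submitters' processing notes; versions, settings and the annotation release are not given in the sources used here. Detection calls were not used here, so signal over background is unknown; precision is limited by how many arrays there are.

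Symbols came from the platform annotation, updated through RefSeq. Of 22011 clusters 14432 had 1 symbol, 2408 several and 5171 none; of 287329 probesets 261273 had 1. A symbol with several clusters (BIRC5) used the one with the highest mean.

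Groups were compared with limma 3.58.1 in R 4.3.3 (lmFit, eBayes, two-sided, Benjamini-Hochberg over all features, threshold 0.05): EC on plastic with ES, EC on feeders with ES, and EC on feeders with plastic in the 3 shared lines, the line as a block. The pairing is by line. After removing each condition's mean, the feeder array of a line correlated with its own plastic array at 0.405 (2102Ep), 0.342 (833KE) and 0.507 (NTERA2). With the plastic arrays of the other lines it correlated below 0. The deviations of the 3 lines in a condition sum to 0, so these values between lines are partly built in. Exon usage (diffSplice) kept probesets whose mean exceeded the 25th percentile in each group. Their gene also had to have a median probeset above the 50th percentile of genes in each group, and at least 3 kept probesets. This left 7623 genes, so its share over all tested probesets is a share over brighter genes. The fits were also run on simulated data with independent noise, no line effects and a shift larger than the gene-level member differences. That run does not bear on how well differences of the size seen here are found.

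The members and lists were chosen with earlier results of these data known. Members given array by array are those that passed and, in each of 7 role groups, the smallest p in each comparison with ES. Each companion list gives, in each comparison, up to 4 that passed (largest difference), or the 2 smallest p; CDCA8 is named through the feeder comparison. Alternatives were quantile normalization, dim features left out, each array left out, the spread of all arrays, the array codes, probeset medians and other choices of clusters.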

Additional observations from a re-analysis of the deposited data

Results flagged for a closer look

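Among 62 groups of 5 or 6 arrays 3 held an array whose gap to the next was a large share of the group's range by Dixon's test. Chance gives about 1 group in 20, and 3 of 62 is close to that share. CDC20 read 8.52 in Shef 6, against 9.97 to 10.75 in the other ES lines. RRM2 read 10.86 in Shef 6, against 11.36 to 11.58 in the other ES lines. MCM2 read 9.80 in H14, against 9.14 to 9.34 in the other ES lines. Shef 6 also had the lowest array median, and the part of this in its 2 values was not tested.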

How the results depend on the processing

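The members that passed on plastic against ES lines numbered 1, and 2 after quantile normalization (CENPA and MCM5), with dim features left out, with the spread of all 14 arrays and with the mean of a symbol's clusters (CENPA and AURKA in each). They numbered 0 among codes from 17 and by probeset medians, and 1 to 2 when 1 array was left out (2 without NCCIT or H9). On feeders the 1 became 0 after quantile normalization, among codes from 17, among codes up to 13 (chosen after seeing the data) and by probeset medians, and 0 to 1 when 1 array was left out (0 without NTERA2, Shef 6, Shef3, Shef7 or 833KE; without H14 the 1 was MCM2). At exon level the 6 probesets on plastic became 2 after quantile normalization, 11 with dim features left out, and 0 to 14 when 1 array was left out (14 without NCCIT, 10 without H9, 1 without H14, Shef5, TERA1 or Shef7, 0 without Shef 6, Shef3, 2102Ep or 833KE). The 0 on feeders became 1 with dim features left out and among codes from 17, and 0 to 1 when 1 array was left out (1 without Shef5).

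Exon usage gave 2, then 1 above the 50th percentile, 0 among codes from 17 and 1 to 3 when 1 array was left out (1 without 2102Ep, 833KE or Shef7, 3 without NCCIT). The 5 mitosis genes on plastic became 3 after quantile normalization, 2 among codes from 17 and 2 to 7 when 1 array was left out, and the 1 replication gene 0 among codes from 17 and 0 to 3. On feeders the 3 mitosis genes became 0 among codes from 17 and 1 to 5 (1 without Shef3, 5 without 833KE), and the 1 regulator 0 to 2 (0 without 2102Ep or Shef3, 2 without H9). With the line as a block 0 members passed in feeders against plastic, and without this pairing 0 passed as well.

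Among the members given array by array the sign turned for TYMS on feeders without 833KE (0.11), CENPA on feeders by probeset medians (-0.027), KIF11 on feeders among codes up to 13 (0.038) and CENPA in feeders against plastic without 833KE (0.0036, with a lowest of -0.31 without NTERA2). Among all 27 quantile normalization also turned AURKB, CCNA2, CDK1, MCM4, PLK1 and UBE2C on plastic, BIRC5, CCNB1, CDC6, MCM4 and MCM6 on feeders, and CCNE1 and MCM6 in feeders against plastic. Probeset medians also turned CCNE2 and CDK1 on plastic, BIRC5, CCNA2, CCNB1, CCNE1 and MCM3 on feeders, and AURKB, CCNA2 and MCM3 in feeders against plastic. Probeset medians are medians of signals within an array. Of the genes they turned, the median of the probeset differences turned too only for BIRC5, CCNA2 and CCNE1 on feeders. The cause of these changes was not tested. Each line was cultured once per condition, cell type and growth condition differ together on plastic, the meaning of the array codes is unknown, and signal over background is not given.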
